A study of Mus musculus with 8 samples.

Results

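A set of 10 genes of NF-kappaB signalling, which encode its subunits and inhibitors, were followed in tumour-associated macrophages with and without the transcription factor gene E2f3. They were chosen by name, and a gene entered through its probe sets annotated with exactly 1 gene symbol, with the brightest probe set (by mean over the 8 arrays) standing for the gene. Of the 10 genes, 9 had such a probe set (19 probe sets in all) among 18194 genes on the array, and Nfkb1 was not analysed here. All 9 lay above the filter on low signal (a mean of log2 6.0) that left 10916 genes tested. RNA came from F4/80-positive cells sorted from mammary tumours of 80-day-old FVB mice, and was hybridised to Affymetrix arrays. All mice carried PyMT, a viral oncogene that causes mammary tumours, and an E2f3 allele flanked by recombination sites (E2f3 f/f). The 4 control arrays (replicates B, C, D and G) were PyMT;E2f3 f/f without Cre, and the 4 E2f3-deleted arrays (replicates A, E, F and H) were PyMT;Lys Cre:E2f3 f/f, with Cre under the lysozyme promoter, a driver of expression in macrophages and other myeloid cells. No group carried Cre without the deletion, so loss of E2f3 and presence of Cre cannot be told apart. Groups follow the sample titles. The letters of the scan files differ from those of the titles, and by them control B and E2f3-deleted replicate F would exchange groups. Nothing in the labels says whether arrays came from separate mice, so the p-values speak only of the spread among these 8 arrays, some of which may be technical.

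NF-kappaB is a dimer of Rel-family proteins that waits in the cytoplasm, bound by inhibitors of the IkappaB family. Signals from Toll-like, interleukin and tumour necrosis factor receptors activate a kinase complex, IkappaB is degraded, and the dimer enters the nucleus and acts on genes of inflammation and survival. Several of those genes encode its own regulators, among them the brakes Nfkbia and Tnfaip3 and the nuclear IkappaB protein of Nfkbiz. The short-lived transcripts of these 3 rise and fall with the activity of the pathway. They are called inhibitors below as a short name, although the Nfkbiz protein also assists transcription. In macrophages the pathway controls much of the output of cytokines and chemokines.

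The stretches of 250 bases before the annotated gene starts show which of these genes carry the letters that NF-kappaB dimers recognise. They are RefSeq sequences of build GRCm38.p6, 5′ to 3′ on the strand of the gene, and capitals mark every match to the kappaB consensus on either strand (overlapping matches run together). Nfkbia and Tnfaip3 are shown because their signals moved together over the arrays, Rel because it followed Tnfaip3 most closely among the subunits, and Rela because its signal hardly varied.
Nfkbia (chr12:55492648-55492897, minus strand): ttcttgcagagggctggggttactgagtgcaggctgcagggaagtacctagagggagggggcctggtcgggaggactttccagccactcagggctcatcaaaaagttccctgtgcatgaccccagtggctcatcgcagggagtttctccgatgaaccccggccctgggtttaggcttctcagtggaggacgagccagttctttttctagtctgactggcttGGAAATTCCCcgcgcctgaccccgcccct
Tnfaip3 (the first of 2 listed starts, chr10:19015411-19015660, minus strand): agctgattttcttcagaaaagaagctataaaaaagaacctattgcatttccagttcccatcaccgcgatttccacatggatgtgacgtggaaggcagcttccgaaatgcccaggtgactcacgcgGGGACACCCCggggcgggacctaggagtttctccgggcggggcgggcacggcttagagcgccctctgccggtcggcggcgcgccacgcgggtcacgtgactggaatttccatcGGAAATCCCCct
Rel (chr11:23770970-23771219, minus strand): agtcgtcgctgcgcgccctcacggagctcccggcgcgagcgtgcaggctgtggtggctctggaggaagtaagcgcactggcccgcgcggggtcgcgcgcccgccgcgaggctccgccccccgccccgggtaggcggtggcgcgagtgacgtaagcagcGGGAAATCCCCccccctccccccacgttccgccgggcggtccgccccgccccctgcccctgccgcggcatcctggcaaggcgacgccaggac
Rela (chr19:5637291-5637540, plus strand): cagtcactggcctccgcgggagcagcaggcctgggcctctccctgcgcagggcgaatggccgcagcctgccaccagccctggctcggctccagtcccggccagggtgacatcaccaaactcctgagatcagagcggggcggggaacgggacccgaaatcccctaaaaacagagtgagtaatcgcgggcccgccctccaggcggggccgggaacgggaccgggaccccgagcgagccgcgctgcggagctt

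Nfkbia had its match from −29 to −20 relative to the start, Tnfaip3 had matches from −125 to −116 and from −12 to −3, and Rel had overlapping matches from −92 to −82. The window of Rela held none, nor did that of Nfkbib. The second listed start of Tnfaip3 held none either, and Nfkb1, Relb and Nfkbiz had no sequence at hand. Nfkb2 (at each of its 3 listed starts) and Nfkbie had matches as well, so that 5 of the 7 genes with a sequence had one. Counted the same way, over any window of a gene, 8.23% of the 27025 genes with such a window had one. An E2F motif, searched on both strands as TTTCCCGC, TTTCGCGC, TTTGCCGC and TTTGGCGC, was found in 2.16% of genes and in 1 of these 7, Rel, where TTTCCCGC lay on the opposite strand from −94 to −87 and shared bases with the kappaB match. A match is a description of the letters and shows no binding.

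E2f3 itself did not separate the groups. Its brighter probe set had log2 signals of 7.66, 7.63, 7.83 and 7.58 on control replicates B, C, D and G and of 7.65, 7.54, 7.53 and 7.79 on replicates A, E, F and H, a difference of −0.05 (SE 0.085, limma, adjusted p = 0.865, all probe sets tested). The second one gave −0.13 (SE 0.086, limma, adjusted p = 0.613), with overlapping groups. Whether either probe set lies in the deleted part of the gene was not determined, so the arrays do not check the deletion, and control and E2f3-deleted are the groups as labelled.

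NF-kappaB subunits and inhibitors differed little between the groups. Of the 9 genes, 8 had a lower and 1 a higher mean in E2f3-deleted macrophages, where 58.7% of all genes tested were lower, and their median difference was −0.05 log2 units against −0.03 for all genes tested. In limma 0 of the 9 passed an adjusted p of 0.05 (smallest 0.335), as did 0 of all genes (0%), and at an unadjusted p under 0.05 there was 1 of 9, Nfkbib, against 14.2% of all genes. In 0 of the 9 were the groups free of overlap, against 8.49% of all genes. What set these genes apart from each other was their spread among arrays, which was small for Rela and large for Nfkbiz and Tnfaip3 in both groups. With 4 arrays a group, 0.0286 is the smallest two-sided p that an exact permutation test allows. Each array measured bulk RNA, where fewer cells of a type and less RNA per cell cannot be told apart.

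**Figure D1:**
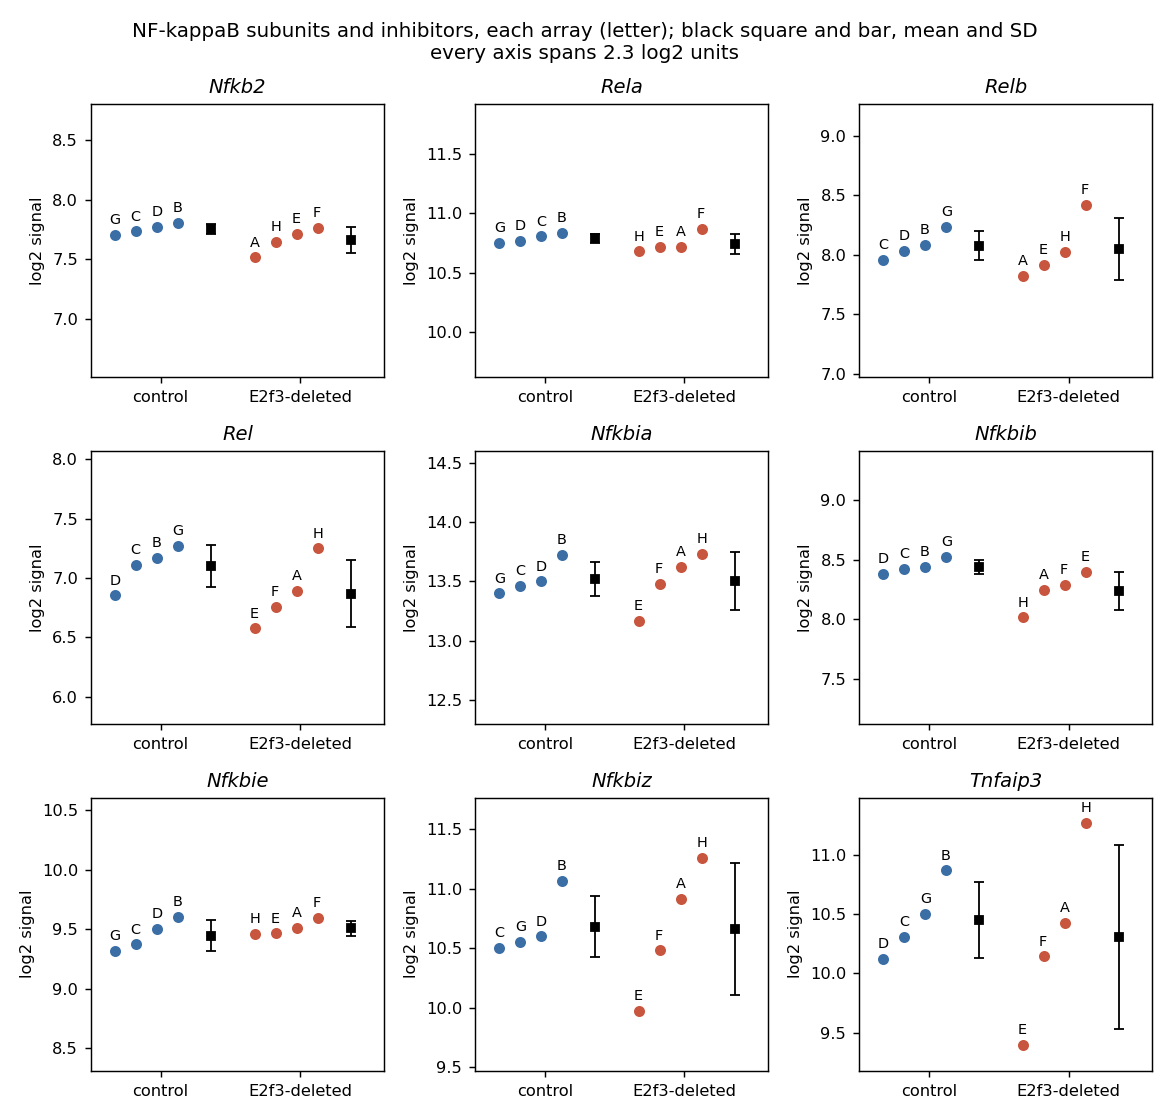
Log2 signal (y axis) of the 9 genes on each of the 4 control (blue) and 4 E2f3-deleted (red) arrays, labelled by replicate letter, with the group mean and SD in black; each panel spans the same number of log2 units. The groups overlap for every gene, and the points spread widest for Nfkbiz and Tnfaip3, where E2f3-deleted replicates E and H lie at opposite ends.

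Among the subunits, Rela, the main activating subunit of the canonical pathway, was the steadiest of the 9 genes. Its log2 signal was 10.84, 10.81, 10.77 and 10.75 on control replicates B, C, D and G and 10.72, 10.71, 10.87 and 10.68 on replicates A, E, F and H with E2f3 deleted. The arrays lay close together and the groups overlapped through replicate F, the highest of all 8. The difference, E2f3-deleted minus control, was −0.05 (SE 0.058, limma, adjusted p = 0.734), with a 95% interval of 0.884-fold to 1.06-fold. It was −0.086 without replicate F and −0.024 without H. Of all genes tested, 92.6% had a larger SD over the 8 arrays.

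Nfkb2, which encodes the precursor processed in the alternative pathway, had log2 signals of 7.80, 7.73, 7.78 and 7.71 on control replicates B, C, D and G and of 7.52, 7.72, 7.77 and 7.64 on replicates A, E, F and H with E2f3 deleted. Replicate A was the lowest, and E and F lay within the control range. Its difference was −0.09 (SE 0.066, limma, adjusted p = 0.524) and −0.05 without replicate A. Relb, the partner of the processed Nfkb2 protein, had 8.09, 7.95, 8.04 and 8.24 in the controls and 7.83, 7.92, 8.42 and 8.03 in E2f3-deleted macrophages. Replicate F held its highest value and A its lowest, so the E2f3-deleted arrays enclosed the controls. The difference of Relb was −0.03 (SE 0.130, limma, adjusted p = 0.931), and it turned to 0.043 without replicate A, 0.012 without E and 0.022 without control G.

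Rel, which encodes c-Rel, a subunit used in activated immune cells, had log2 signals of 7.17, 7.11, 6.85 and 7.27 on control replicates B, C, D and G and of 6.89, 6.58, 6.76 and 7.25 on replicates A, E, F and H with E2f3 deleted. Replicates E and F lay below all controls, while H lay near the top of the control range. The means were 7.10 ± 0.177 and 6.87 ± 0.285 (SD, n = 4 each), the largest difference of the 9 genes at −0.23 (SE 0.15, limma, adjusted p = 0.499). Without replicate H it was −0.36, with an adjusted p of 0.253, and without replicate E it was −0.13.

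The classical inhibitors hold the dimers in the cytoplasm. Nfkbia, which encodes IkappaB-alpha, the inhibitor degraded and remade in each round of signalling, had log2 signals of 13.72, 13.46, 13.50 and 13.40 on control replicates B, C, D and G and of 13.62, 13.17, 13.48 and 13.73 on replicates A, E, F and H with E2f3 deleted. Replicate H was the highest and E the lowest, so the E2f3-deleted arrays enclosed the controls, of which B came close to H. Its difference was −0.02 (SE 0.129, limma, adjusted p = 0.954), with an interval of 0.803-fold to 1.21-fold, and it turned to 0.048 without control B and 0.091 without replicate E. Signals this bright can be compressed on arrays.

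Nfkbib, which encodes IkappaB-beta, had log2 signals of 8.44, 8.42, 8.38 and 8.52 on control replicates B, C, D and G and of 8.25, 8.40, 8.29 and 8.02 on replicates A, E, F and H with E2f3 deleted. All 4 E2f3-deleted arrays lay below the control mean, and replicate E alone reached the control range. The means were 8.44 ± 0.059 and 8.24 ± 0.161 (SD, n = 4 each), a difference of −0.21 (SE 0.085, limma, adjusted p = 0.335; exact permutation test, two-sided, p = 0.0571). It was the only member at an unadjusted p under 0.05 (limma, 0.0418), and leaving out any array other than replicate E took that p to between 0.0511 and 0.102. Its value was −0.13 without replicate H. A second, dim probe set of Nfkbib had the opposite direction. Its log2 signals were 4.27, 4.36, 4.43 and 4.34 in the controls and 4.60, 4.57, 4.61 and 4.48 in E2f3-deleted macrophages, so its groups did not overlap, as was true of 5.96% of all probe sets, and of 2.51% in the higher direction. That difference of 0.21 (SE 0.063) had an adjusted p of 0.388 over all probe sets (limma; exact permutation test, two-sided, p = 0.0286), and its level was under the filter on low signal. With both probe sets averaged the difference of Nfkbib was 0.0035.

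Nfkbie, which encodes IkappaB-epsilon, was the one gene with a higher mean. It had log2 signals of 9.60, 9.37, 9.50 and 9.32 on control replicates B, C, D and G and of 9.51, 9.47, 9.60 and 9.46 on replicates A, E, F and H with E2f3 deleted. The E2f3-deleted arrays lay inside the control range, and their SD was 0.480 times that of the controls, the only ratio below 1 among the 9. The difference was 0.06 (SE 0.074, limma, adjusted p = 0.716), and 0.02 without control replicate G and 0.11 without control replicate B.

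Nfkbiz and Tnfaip3 varied most from array to array. Nfkbiz encodes an inducible nuclear member of the IkappaB family that assists transcription of secondary response genes. Its log2 signals were 11.06, 10.51, 10.60 and 10.56 on control replicates B, C, D and G and 10.92, 9.98, 10.48 and 11.26 on replicates A, E, F and H with E2f3 deleted. Control B stood above the other controls, and replicates E and H were the lowest and highest of the 8 arrays, 2.44-fold apart. The difference between groups was −0.02 (SE 0.267, limma, adjusted p = 0.976), with an interval of 0.643-fold to 1.51-fold, and it was 0.10 without control B, 0.21 without replicate E, 0.037 without F and −0.22 without H.

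Tnfaip3 encodes a ubiquitin-editing enzyme that shuts off signalling upstream of the kinase complex. Its log2 signals were 10.87, 10.30, 10.12 and 10.50 on control replicates B, C, D and G and 10.42, 9.40, 10.14 and 11.26 on replicates A, E, F and H with E2f3 deleted. Again E was lowest and H highest, 3.65-fold apart, and control B came second. The difference between groups was −0.14 (SE 0.362, limma, adjusted p = 0.873), with an interval of 0.509-fold to 1.61-fold. It was −0.46 without replicate H and turned to 0.16 without replicate E, with no call in either case. The SD in E2f3-deleted macrophages was 2.43 times that of the controls for Tnfaip3 and 2.16 times for Nfkbiz, and it was also larger for Nfkbib (2.73 times), Nfkb2 (2.54), Relb (2.20), Rela (2.12), Nfkbia (1.72) and Rel (1.61), where the median ratio of all genes tested was 1.36 and 67.7% of them had the larger SD in E2f3-deleted macrophages. Only 6.60% of all genes tested had a larger SD over the 8 arrays than Tnfaip3, and 10.9% than Nfkbiz.

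**Figure D2:**
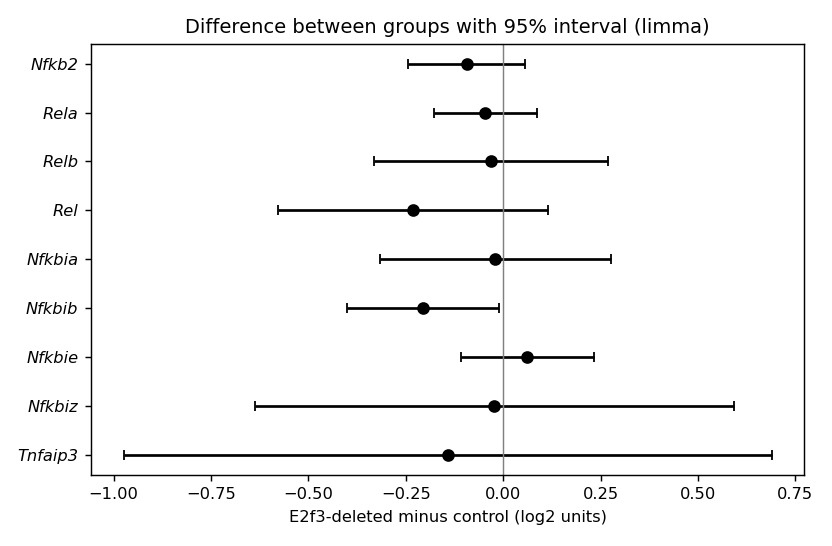
Difference between E2f3-deleted and control macrophages in log2 units (x axis) for each of the 9 genes, with the 95% interval from limma (n = 4 arrays per group). The intervals of 8 genes include 0 and that of Nfkbib ends just below it at −0.01; the widest, from −0.97 to 0.69, is that of Tnfaip3.

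Different probe sets of the variable inhibitors shared their lowest array, but not their highest. Nfkbia had 5 probe sets, Nfkbiz 3 and Tnfaip3 2, and E2f3-deleted replicate E was the lowest array on all 10, where 9.37% of all genes tested were lowest on it. Of the 10 probe sets, 6 were highest on E2f3-deleted replicate H, 3 on control B and 1 on replicate A. Of all genes tested, 18.8% were highest on H and 11.9% on control B. The second probe set of Tnfaip3, with a mean of 5.37, was under the filter on low signal. Over the 8 arrays the other probe sets of these genes correlated with the brightest one by r of 0.892 to 0.962 for Nfkbia, 0.892 and 0.904 for Nfkbiz and 0.856 for Tnfaip3, as a description of probe sets that share the same RNA. The group difference was below 0 on all 10, from −0.18 to −0.02, and none passed an adjusted p of 0.05 (limma). The probe sets of Nfkb2 and of Nfkbie also had 1 direction each.

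Nfkbia, Nfkbiz and Tnfaip3 rose and fell together over the 8 arrays. Relative to each gene's mean over the 8 arrays, the mean of the 3 was −0.67 on E2f3-deleted replicate E, −0.15 on F, 0.13 on A and 0.57 on H, and 0.36 on control B, −0.10 on C, −0.11 on D and −0.03 on G. The low and the high end were thus both E2f3-deleted arrays, and the groups overlapped in this mean (exact permutation test, two-sided, p = 0.886).

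Among the 36 pairs of the 9 genes, the highest correlation was that of Nfkbia with Nfkbiz. Their Pearson r was 0.975 (exact permutation test over 40320 pairings, p = 0.000546, 0.0152 adjusted over the 36 pairs) and their Spearman rho 0.905 (exact p = 0.00456, adjusted 0.130). For Nfkbiz and Tnfaip3, r was 0.948 (exact permutation p = 0.000843, adjusted 0.0152) and rho 0.810 (exact p = 0.0218, adjusted 0.261). For Nfkbia and Tnfaip3, r was 0.898 (exact permutation p = 0.00397, adjusted 0.0357) and rho 0.667 (exact p = 0.0831, adjusted 0.577). Replicates E and H carry part of these values. Without them r was 0.940, 0.784 and 0.652 for the same pairs in order. With every gene centred on its group means, r was 0.975, 0.953 and 0.90. That value pools both groups, and 4 arrays are too few for a correlation within each. Among the controls, B was highest for all 3 genes, but C, D and G had opposite orders for Nfkbia (D, C, G from high to low) and Tnfaip3 (G, C, D).

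Among the subunits, Rel followed them most closely over the 8 arrays. Its r with Tnfaip3 was 0.857 (exact permutation p = 0.00365, adjusted 0.0357; rho 0.881, exact p = 0.00724, adjusted 0.130) and 0.851 without control replicate G and E2f3-deleted replicate E. Unlike for the pairs of inhibitors, that value kept replicate H, the highest array for Tnfaip3. The r of Rel was 0.692 with Nfkbiz and 0.607 with Nfkbia, neither past the threshold after adjustment (exact permutation test, adjusted 0.337 and 0.492). Rela, Relb and Nfkb2 had r between −0.29 and 0.09 with the 3 inhibitors. Those values rest on few arrays: without E2f3-deleted replicates A and H, the r of Nfkb2 was 0.830 with Nfkbia, 0.725 with Nfkbiz and 0.486 with Tnfaip3, and without F and H that of Rela was 0.577, 0.498 and 0.635. Nfkbib had −0.51, −0.55 and −0.46 with Nfkbia, Nfkbiz and Tnfaip3. These values rest on few arrays too. Without E2f3-deleted replicates A and H its r turned to 0.223 with Nfkbiz and 0.394 with Tnfaip3, and without E and H it was −0.275 with Nfkbia. The remaining high value among subunits was 0.682 for Nfkb2 with Rela (exact permutation p = 0.0521, adjusted 0.337). No relation with Rela, Relb, Nfkb2, Nfkbib or Nfkbie passed after adjustment.

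**Figure D3:**
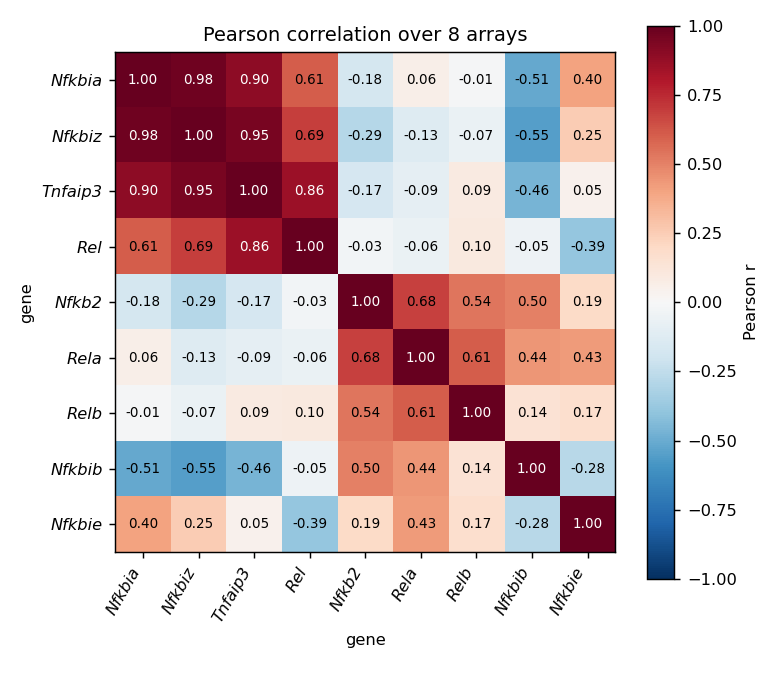
Pearson correlation over the 8 arrays for each pair of the 9 genes (both axes), from blue at −1 to red at 1. Nfkbia, Nfkbiz and Tnfaip3 form a block with r of 0.90 to 0.98, Rel joins it through Tnfaip3 (0.86), and Nfkb2, Rela and Relb are near or below 0 with the block.

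Some other early response genes had a like profile over the arrays, given here as a description over 8 arrays that share their libraries. The tested genes most like Nfkbia were Fosb (r = 0.977), Nr4a1 (0.962) and Zfp36 (0.958), the first 2 encoding immediate early transcription factors and the third a protein that destabilises cytokine messages. Those most like Tnfaip3 were Klhdc10 (0.979), Ccrl2 (0.978), a chemokine-binding receptor induced in activated macrophages, and Srek1 (0.973). Those most like Rela were Parp16 (0.974), Mon2 (0.935) and Rabggta (0.935).

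Ccrl2 had the widest range of these genes. Its log2 signal was 11.72, 11.09, 11.13 and 11.20 on control replicates B, C, D and G and 11.40, 9.78, 10.74 and 12.32 on replicates A, E, F and H with E2f3 deleted. Fosb had 8.35, 7.82, 7.67 and 7.63 in the controls and 8.16, 6.57, 7.67 and 8.61 in E2f3-deleted macrophages. In both, replicate E was far below the other arrays and H above them, as for Tnfaip3. Their differences between groups were −0.22 (SE 0.481) and −0.11 (SE 0.405), with adjusted p of 0.847 and 0.912 (limma).

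A correlation of at least 0.8 with the mean of the 3 inhibitors, a limit set after the values were seen, was reached by 1.6% of the other genes tested. In the list of immediate early and heat shock genes it was reached by 7 of 23: Fosb, Atf3, Zfp36, Btg2, Nr4a1, Fos and Klf6. At its other end were the heat shock genes Hspa1b (−0.847), Hspa1a (−0.714), Hsph1 (−0.538) and Dnajb1 (−0.340). The early response genes Jund (−0.635), Fosl2 (−0.410), Klf2 (−0.248), Klf4 (−0.159) and Egr2 (−0.111) were below 0 as well. The median r of the list was 0.643. In the list of NF-kappaB target genes it was reached by 7 of 47: Ccrl2, the chemokines Cxcl2, Cxcl1 and Ccl3, the receptor Tlr2, the surface protein Cd83 and Ptgs2, the inducible enzyme of prostaglandin synthesis. The median r of the target genes was 0.15, and Cd44, a hyaluronan receptor, Slc7a11, a cystine transporter, and Clec4e, a receptor for microbial lipids, had −0.881, −0.834 and −0.80. Nfkbid and Irf1 reached it among 16 other IkappaB proteins and cofactors, Tab2 and Tab3 among 21 kinases and scaffolds, and 0 of 25 did in the list of ubiquitin editing and proteolysis. The median r of these lists was −0.13, −0.04 and 0.05 in that order. Their lowest genes were Cebpb at −0.763, Irak3 at −0.650 and Commd1 at −0.934. Tnf, the classic target, had an r of 0.747. The mean of the immediate early and heat shock list correlated with that of the inhibitors by 0.842 (rho 0.762), and by 0.681 without replicates E and H. The list was chosen with earlier results of these data known, so these values are a description and no p is given.

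**Figure D4:**
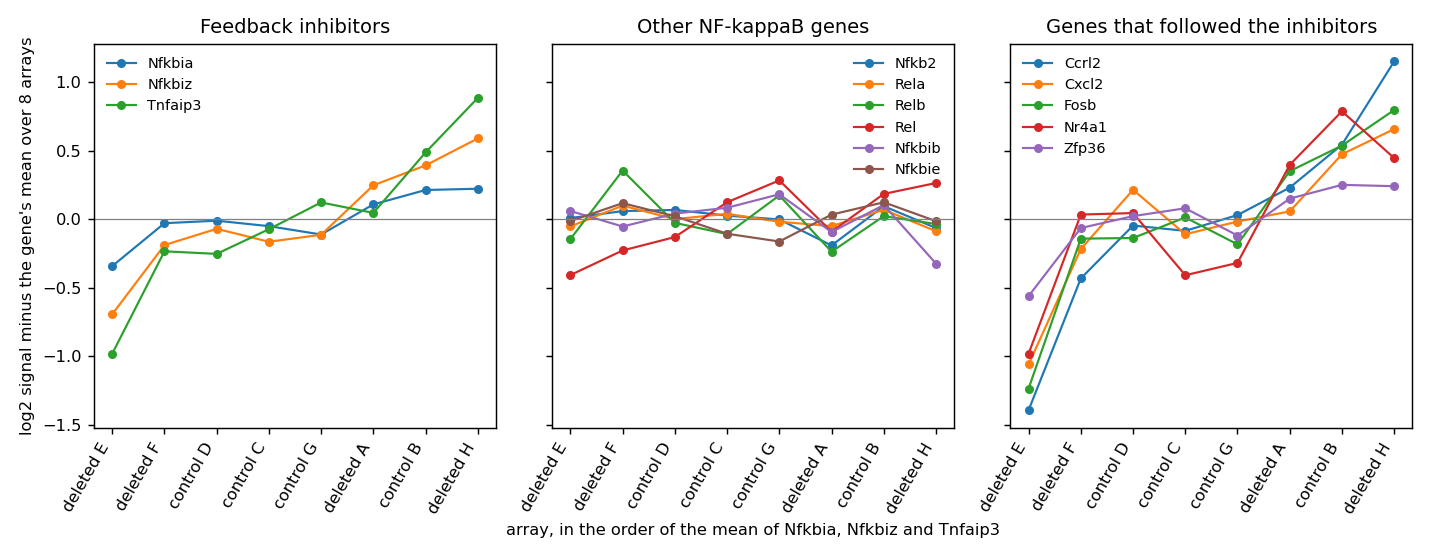
Log2 signal minus each gene's mean over the 8 arrays (y axis) against the arrays in the order of the mean of Nfkbia, Nfkbiz and Tnfaip3 (x axis), for these 3 inhibitors (left), the other 6 NF-kappaB genes (middle) and 5 genes with a like profile (right); lines join the values of 1 gene. E2f3-deleted replicate E is lowest and H or control B highest for the inhibitors and the genes on the right. In the middle Rel is also lowest on E but highest on control G, and the other genes have no such order.

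The other parts of the pathway were also near their control levels. Of 21 tested genes for kinases and scaffolds that carry the signal to IkappaB, 13 were lower and 8 higher, 0 passed the adjusted threshold and 1 had an unadjusted p under 0.05 (4.76%, against 14.2% of all genes). That gene was Traf1, an adaptor of tumour necrosis factor receptors, with a difference of 0.38 (SE 0.154, limma, adjusted p = 0.323). Map3k14, the kinase of the alternative pathway, had −0.18, the adaptor Tab1 −0.14, Irak2, a kinase of interleukin and Toll-like receptor signalling, −0.19, and the brightest gene of the list, Tab2, 0.00238. The median of the list was −0.04.

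In the list of ubiquitin editing and proteolysis 12 genes were lower and 13 higher of 25 tested, with a median of 0.01, and 3 had an unadjusted p under 0.05 (12%, against 14.2% of all genes). They were Zc3h12a, a nuclease that degrades cytokine messages (−0.19, SE 0.070), Tnip2, a partner of Tnfaip3 (−0.19, SE 0.070), and Rnf11, a component of the Tnfaip3 complex (0.28, SE 0.122), with adjusted p of 0.297, 0.303 and 0.351 (limma). The groups did not overlap for Zc3h12a and Rnf11, 2 of 25 genes, a share near the 8.49% of all genes. Otud7b, a deubiquitinase, had 0.22, and Fbxw11, a receptor subunit of the ligase that marks IkappaB, 0.11. Among 16 other IkappaB proteins and cofactors, 10 were lower and 6 higher (median −0.03), and 0 had an unadjusted p under 0.05. Nkiras2, which binds IkappaB, had −0.19, the macrophage factor Spi1 −0.28, Nfkbil1 −0.11, Irf1 0.14 and Akirin2 −0.03.

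NF-kappaB target genes were lower in 32 and higher in 15 of 47 tested (of 60 with a probe set), with a median of −0.10, and 0 passed the adjusted threshold. An unadjusted p under 0.05 was found for 4 (8.51%), all with a lower mean, where 6.91% of all genes had that p in the lower direction. They were Tnfrsf1b, a receptor of tumour necrosis factor (−0.22, SE 0.071, limma, adjusted p = 0.257), Plek, a phagocyte signalling protein (−0.17), the survival gene Bcl2l1 (−0.19) and the chemokine Cxcl16 (−0.20). The groups did not overlap for Tnfrsf1b and Plek, 2 of 47 genes, against 8.49% of all genes. Fth1, the ferritin heavy chain, had −0.08. The chemokine Cxcl2 had log2 signals of 12.80, 12.22, 12.54 and 12.31 on control replicates B, C, D and G and 12.39, 11.27, 12.11 and 12.99 on replicates A, E, F and H with E2f3 deleted, with E lowest and H highest. Of 23 tested immediate early and heat shock genes, 8 were higher and 15 lower, with a median of −0.02. An unadjusted p under 0.05 was reached by 1 of them (4.35%, against 14.2% of all genes). That was Fosl2, a partner of Jun proteins, at 0.32 (SE 0.084, limma, adjusted p = 0.210). Its groups did not overlap, 1 of 23 genes, against 8.49% of all genes. The chaperone gene Dnajb1 had 0.15, Atf3 −0.23, Zfp36 −0.12 and Fos 0.02.

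The sorted cells also gave signal for markers of other cell types. The lists were chosen with earlier results of these data known, so no p is given for a list mean. The mean log2 signal of 13 macrophage markers ran from 12.96 to 13.06 in controls and from 12.75 to 12.94 in E2f3-deleted macrophages. Of the 13 markers 12 were lower, as were 58.7% of all genes tested. Adgre1, which encodes F4/80, was at 12.88 ± 0.078 and 12.69 ± 0.068 (SD, n = 4 each). All 18 endothelial markers had a probe set, 16 above the filter. Their mean ran from 6.14 to 7.01 in controls and from 6.67 to 8.61 in E2f3-deleted macrophages. The difference of the list mean was 1.29, with overlapping groups. In limma 16 of 16 were higher, 15 of them at an unadjusted p under 0.05, against 7.27% of all genes in that direction. Of the 16, 0 passed an adjusted p of 0.05, and the groups did not overlap for 2, against 8.49% of all genes. Higher means were also found for 14 of 14 fibroblast and pericyte, 8 of 8 mast cell and basophil and 16 of 17 epithelial markers. The list differences were 0.64, 0.97 and 0.38, where 58.7% of all genes tested were lower. The filter used the mean over both groups, so a marker low in controls could pass it through its E2f3-deleted signal. The mast cell list mean was under the filter value of log2 6.0 in all controls. These counts and those of endothelial markers are thus a description only. On the arrays where the inhibitors were extreme, fibroblast and pericyte markers (14 of 14 above the filter) were at 11.34 on replicate H and 9.49 on E, against 9.15 to 10.14 in controls, and mast cell and basophil markers (8 of 12 above the filter) at 8.38 on H and 6.66 on E, against 5.39 to 5.88. Epithelial markers (17 of 18) were at 8.57 on H and 9.72 on E, against 8.64 to 9.71. Over the 8 arrays the median r of single markers with the mean of the 3 inhibitors was 0.617 for fibroblasts and pericytes, −0.647 for epithelium, −0.374 for endothelium, 0.365 for mast cells and −0.116 for macrophages. The fibroblast median was thus close to that of the immediate early list, and its highest members were Fap at 0.798, Dcn at 0.735 and Lum at 0.725. Control B, the other high array for the inhibitors, was at 9.62 for fibroblasts, 5.77 for mast cells and 8.64 for epithelium. Lymphocyte markers (5 of 12 above the filter) were at 5.81 on H, 6.02 on E and 5.96 to 6.92 in controls, neutrophil markers (4 of 9) at 6.36, 6.60 and 6.34 to 6.50, and dendritic cell markers (5 of 8) at 6.81, 7.33 and 7.02 to 7.58. Replicate H had the lowest mean correlation with its own group, 0.983 over all probe sets, against 0.990 to 0.991 for the other E2f3-deleted arrays and 0.994 to 0.995 for the controls. The 3′ minus 5′ signal of Gapdh, a measure of RNA integrity, was 1.73 on H, 1.48 on E and 1.53 on control B, and 1.67 ± 0.167 in E2f3-deleted against 1.45 ± 0.064 in control arrays (SD, n = 4 each; exact permutation test, two-sided, p = 0.0571). The part of these in the profile of the inhibitors was not tested.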

How the data were processed

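Gene expression was measured in 8 arrays, grouped by their titles. The authors deposited log2 signals of 45101 probe sets made with RMA, per the submitters' processing notes; no RMA version is stated in the notes at hand. Its quantile step gives arrays like distributions, which hides any change common to most genes. Probe sets were named from the platform annotation; 34958 had 1 symbol. Genes under the 40th percentile of the mean were left out.

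The group difference of each gene came from limma 3.58.1 (R 4.3.3; two-sided moderated test by lmFit and eBayes, p adjusted by Benjamini-Hochberg), and the fit was tested on simulated data. Single values used exact permutation tests of 70 assignments. The number of arrays limits the precision. The highest correlation of 2 arrays was 0.996 and 0.317% of values were identical at most, so no array was a copy of another and each counted once. These values cannot show whether the arrays came from separate mice.

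Members and lists were chosen with earlier results of these data known, so no p of a group difference is adjusted over them alone. The p-values of correlations between members were adjusted over their 36 pairs only, and that choice of members limits them too. Named genes were all members, the 4 smallest p and the brightest gene of each pathway list, and the 3 genes most correlated with Rela, Nfkbia and Tnfaip3; Ccrl2, Cxcl2, Tnf and the other genes named by their r with the inhibitors were added after their values were seen. Alternatives were the mean of probe sets, other filters (none or the 60th percentile), further quantile normalization, array weights, centring on the median, a robust prior with a trend, an adjusted p of 0.1, each array left out, and grouping by the scan file letter. Promoter matches were searched in RefSeq sequences of GRCm38.p6.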

Additional observations from a re-analysis of the deposited data

Results flagged for a closer look

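On control replicate B the log2 signal of Nfkbiz, 11.06, stood apart from the other 3 controls, at 10.51 to 10.60. The gap was 0.831 of the whole range of the group, above Dixon's 95% limit for 4 values. On control replicate D the mean signal of the list of kinases and scaffolds, 8.94, lay below the other controls, at 9.0 to 9.01, with a gap of 0.883 of the range. These were 2 of 44 groups of 4 arrays compared in this way, and chance marks about 1 in 20.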

How the results depend on the processing

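No member passed an adjusted p of 0.05 under any alternative (smallest 0.210, Nfkbib without E2f3-deleted replicate E), and 127 of 142 single values kept their direction. The number of members at an unadjusted p under 0.05, 1 with all arrays, was 0 with the mean of all probe sets, 2 (Nfkbib and Rel) with array weights, 0 with arrays grouped by scan file letter, and 0 to 1 with an array left out. Genes past the threshold numbered 0 with all arrays and 0 to 60 with an array left out, 60 without replicate E and 14 without replicate H. Directions turned for Nfkbib with the mean of its probe sets (0.0035), for Nfkbia with further quantile normalization (0.0079) and for Relb with array weights (0.0078). Grouping by scan file letter exchanges the groups of 2 arrays, control B and E2f3-deleted replicate F. It turned the direction for Nfkbia (0.10), Nfkbiz (0.27) and Tnfaip3 (0.22). Which grouping is right for these 2 arrays cannot be told from the labels. With an array left out, Nfkbia ranged from −0.098 to 0.091, Nfkbiz from −0.22 to 0.21, Tnfaip3 from −0.46 to 0.16 and Relb from −0.15 to 0.043. The median of the members kept within 1 SD of its per-array spread (0.068), from −0.098 without replicate H to 0.012 without replicate E. No paired analysis was possible because the groups share no replicate letters. The cause of these changes was not tested.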
